A study of Mus musculus with 24 samples.

Results

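The 8 arrays described here hold RNA from endothelial cells of Wnt medulloblastoma, out of 24 arrays in all, and they were chosen by their label. Medulloblastoma is a tumour of the cerebellum and the neighbouring brainstem, and the Wnt kind is driven by active beta-catenin signalling. The tumours arose in Blbp-Cre mice with a floxed exon 3 in a single Ctnnb1 allele, both Trp53 alleles floxed and a single floxed Pik3ca allele. Blbp-Cre is known to be active in neural progenitors, and which of the sorted cells carried recombined alleles was not measured. The other arrays were 8 from tumours of Ptch+/-; Ink4c-/- mice, called Shh here, and 8 from wild-type adult hindbrain. All mice were of mixed strain background, the ages of the tumour mice and any pooling of animals are not stated in the sources used here, and the arrays of a group were labelled as biological replicates. In every group the dissociated cells were enriched on magnetic beads with antibodies to Cd144, the product of Cdh5, and Cd105, the product of Eng. The arrays are called by their replicate number below, and levels are deposited log2 values of 1 probe set per gene.

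Brain endothelium lines the vessels as a thin sheet of cells joined by tight junctions, and it carries transporters that form the barrier between blood and brain. It sits on a basement membrane that it shares with pericytes, the contractile cells that wrap small vessels and are recruited by Pdgfb from the endothelium through the receptor Pdgfrb. A magnetic sort enriches the wanted cells without removing every other cell, so genes of pericytes, microglia and tumour cells can appear in the same RNA. In bulk RNA, fewer cells of a type and less RNA per cell cannot be told apart.

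An endothelial score was formed for each array as the mean log2 level of Cdh5 (VE-cadherin of the cell junctions), Pecam1 (CD31, an adhesion receptor), Eng (a co-receptor for TGF-beta ligands), Tie1 (a receptor that partners Tek) and Kdr (the main VEGF receptor). These 5 genes define the score, so their own values are given as a description with no test. The score was 10.44 in array 8, 10.68 in array 1, 10.96 in array 7, 11.16 in array 3, 11.28 in array 2, 11.46 in array 6, 11.47 in array 4 and 11.56 in array 5 (SD 0.40, n = 8). It ran from 11.65 to 12.03 over the Shh arrays (SD 0.15) and from 11.60 to 11.97 over the hindbrain arrays (SD 0.11). All 8 Wnt arrays therefore lay below the lowest array of both other groups, and they spread most widely. Among the 5 genes, Tie1 ran from 8.65 to 10.10 and Pecam1 from 9.55 to 10.96, while Eng ran from 11.63 to 12.48. Per unit of score, the level of Tie1 rose by 1.30, Pecam1 by 1.21, Kdr by 0.91, Cdh5 by 0.84 and Eng by 0.74 log2 units. The genes of both sort antigens had the shallowest slopes of the 5.

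**Figure D1:**
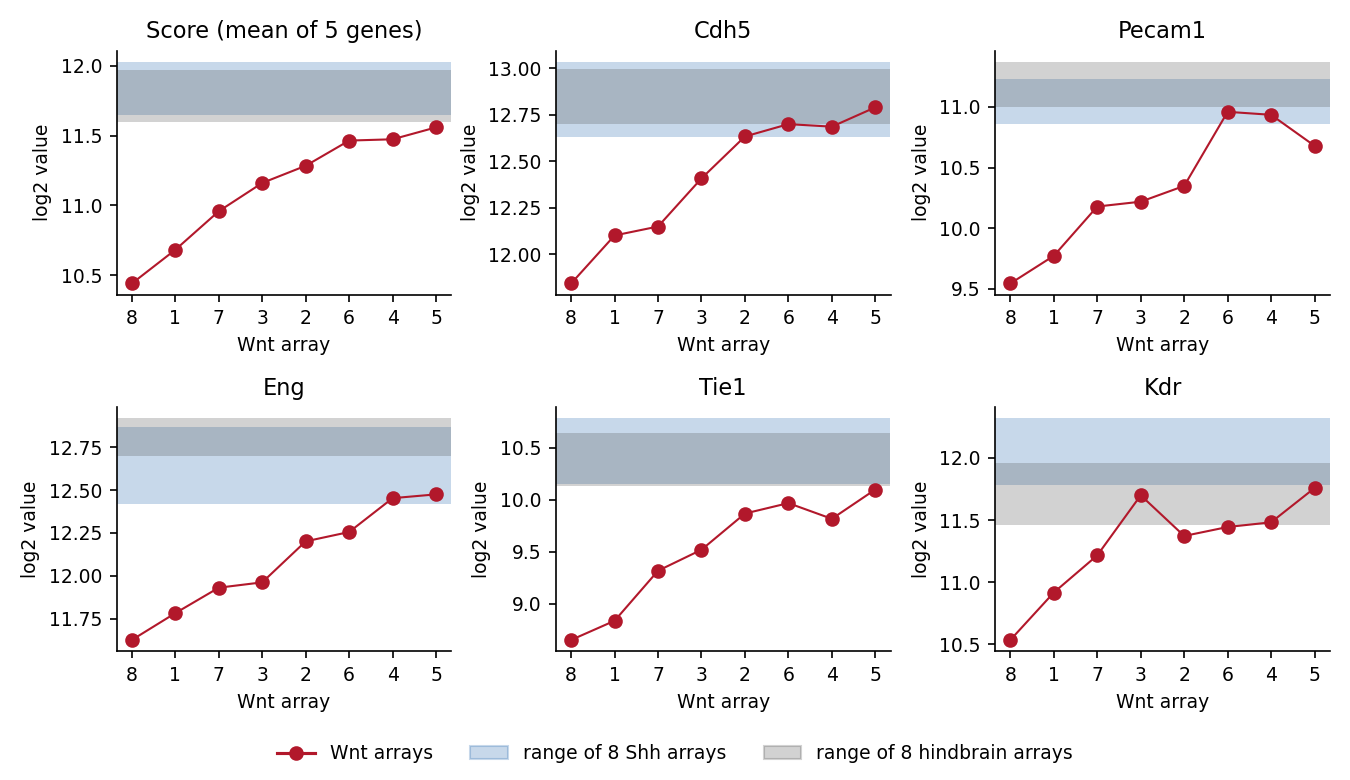
Score and levels of its 5 genes (log2) in the 8 Wnt arrays, ordered by score, as points. The bands give the range of the 8 Shh and the 8 hindbrain arrays. Arrays 8 and 1 were lowest for the score and for every gene of it.

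The deposited values held 22180 genes with a probe set of their own symbol. For 92 control probe sets of ERCC sequences, which are not mouse genes, the 95th percentile of their means was 5.24, and 16369 genes had a mean over the Wnt arrays above it. Array medians ran from 5.96 to 6.18 in the Wnt group. The array median was positively related to the score without passing at an adjusted p under 0.05 (Pearson r = 0.652, exact permutation p = 0.0876, adjusted 0.0876; Spearman rho = 0.667, p = 0.0831, adjusted 0.125). The ERCC mean ran the other way (r = -0.744, exact permutation p = 0.0478, adjusted 0.0717; rho = -0.548, p = 0.171, adjusted 0.171). A first principal component of the other genes, with 29.7% of their variance, followed the score (r = 0.852, exact permutation p = 0.00784, adjusted 0.0235; rho = 0.857, p = 0.0107, adjusted 0.0321). These 3 relations were computed together over 8 arrays, and only that of the first component passed at an adjusted p under 0.05. Without arrays 8 and 1, the farthest from the median score, r was 0.189, -0.191 and 0.569. The relation of the first component (exact permutation p = 0.225) did not pass without that pair either. Without array 8 alone r was 0.368, -0.396 and 0.780, and without array 1 alone it was 0.658, -0.818 and 0.814. Wif1, a secreted Wnt antagonist and marker of this tumour, lay between 12.52 and 13.06 in the Wnt arrays and between 5.78 and 9.03 in the Shh arrays. Ctnnb1 itself was level (11.54 to 11.93), and it checks nothing here, since the place of its probe set relative to exon 3 is not known.

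For every gene outside the score, limma gave the slope of its log2 level on the score across the 8 Wnt arrays. A slope of 1 means that the gene moved in step with the score. Of 22175 genes tested, 73 rose with the score at an adjusted p under 0.05, which is 0.329%, and 7 fell, which is 0.0316%. At an unadjusted p under 0.05, 1627 genes rose (7.34%) and 1474 fell (6.65%). The slopes of the 73 lay between 0.70 and 1.98 with a median of 1.19, and 61 of them were above 1. Those of the 7 lay between -2.60 and -1.23. The last genes inside the threshold were Sema7a and Olfr765 (adjusted p = 0.0478 for both), and the first outside it were Osbpl6 and Tns2 (0.0524 for both). No gene passed in either direction without array 1, without array 5, without array 8, or without arrays 8 and 1 together. Without array 4, 16 rose and 3 fell, without array 7, 25 rose and 4 fell, and without arrays 2, 3 or 6 the falling genes numbered 22, 11 and 13. In the fit without arrays 8 and 1, limma gave 474 rising and 336 falling genes at an unadjusted p under 0.05. All 73 rising and all 7 falling genes kept their direction in each fit without 1 array and in the fit without arrays 8 and 1, where 62 and 7 of them had an unadjusted p under 0.05. These fits share most arrays with the fit that chose the genes. With the array median as a covariate no gene passed either, against limma's 932 rising and 578 falling at an unadjusted p under 0.05.

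The 8 Shh arrays give a measure that the choice of these genes did not use, over a narrower range of score. There 66 of the 73 rising genes had a slope of the same sign. At an unadjusted p under 0.05, 43 of the 73 rose, against 9.44% of all genes tested. Of the 43, 4 also passed the adjusted threshold. Shares of all genes were not counted for the sign or for the adjusted threshold in the Shh arrays. The median slope of the 73 in the Shh arrays was 1.22, against 0.10 for all genes. Of the 7 falling genes, 6 kept their sign and 4 fell at an unadjusted p under 0.05, against 8.1% of all genes.

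Pan-endothelial genes outside the score rose nearly in step with it. Of 38 measured, 12 passed the adjusted threshold (0.329% of all genes did), 35 rose at an unadjusted p under 0.05 and none fell, and their median slope was 1.06 beside -0.01 for all genes tested. Esam, an adhesion molecule of endothelial junctions, was lowest in array 8 (10.32) and highest in array 4 (11.77), with a median of 11.17. Its slope was 1.26 ± 0.13 (SE, adjusted p = 0.0135). Egfl7, a matrix protein secreted by endothelium, ran from 9.36 in array 8 to 11.12 in array 5 and had a slope of 1.36 ± 0.14 (adjusted p = 0.0135). Both had slopes of like size in the Shh arrays, 1.24 ± 0.29 for Esam and 1.499 ± 0.33 for Egfl7. Nos3, which makes nitric oxide in vessels, Robo4, a guidance receptor of endothelium, and the transcription factor Ets1 rose as well, by 1.07 ± 0.15, 1.29 ± 0.18 and 1.001 ± 0.16.

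The steepest of the rising genes was Gimap6, a GTPase known mainly from lymphocytes and also present in endothelium. Its level was 8.07 in array 8, 8.58 in array 1 and 9.39 in array 7, and 10.34 and 10.37 in arrays 5 and 4. The slope was 1.98 ± 0.18 in the Wnt arrays (adjusted p = 0.0135) and 1.93 ± 0.36 in the Shh arrays, and the related Gimap5 rose by 1.55 ± 0.17 and 1.699 ± 0.59. Grb10, an adaptor that dampens insulin and growth factor receptors, rose by 1.85 ± 0.22, and Clec1a, a lectin-like receptor of endothelium, by 1.67 ± 0.21. The zinc finger factor Zfp521 rose by 1.62 ± 0.20 and Hecw2, a ubiquitin ligase, by 1.64 ± 0.17. Flt4, the receptor for Vegfc, rose by 1.62 ± 0.20 and had its highest level, 10.44, in array 6. Rapgef5, Kank3 and Pcdh19 completed the 14 steepest above the control limit with Notch3, Jag1, Pdgfrb and Pdgfb, described below, and their slopes were 1.53, 1.51 and 1.48.

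**Figure D2:**
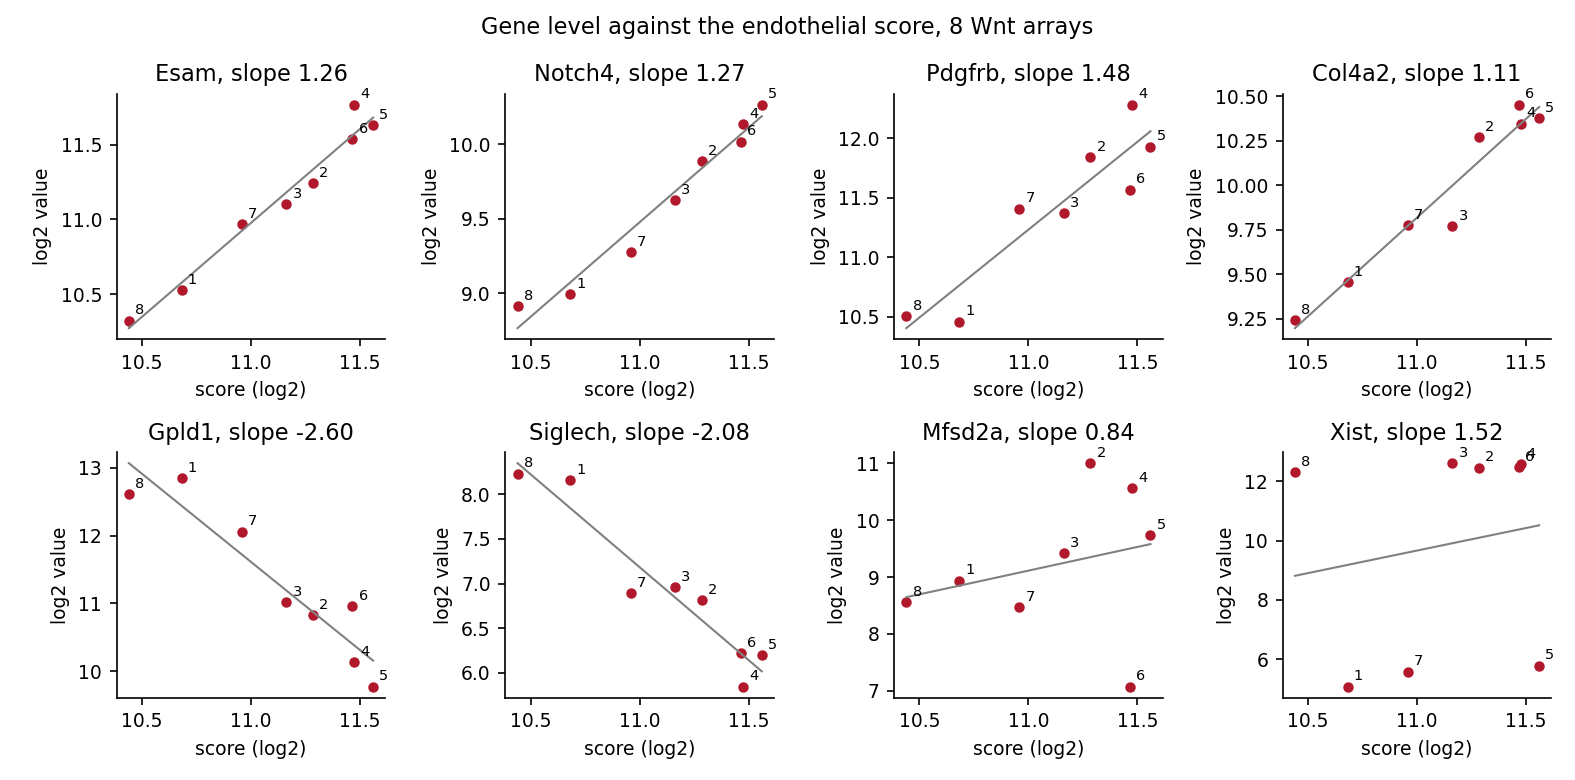
Log2 level of 8 genes against the score in the 8 Wnt arrays, each point numbered by its array, with the least squares line. Esam, Notch4, Pdgfrb and Col4a2 rose with the score, Gpld1 and Siglech fell, and Mfsd2a and Xist did not pass the test.

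Proximal promoters of the rising genes were read for the core site of ETS factors, the family of Ets1, Erg and Fli1 that is known to act on many endothelial genes. The sites searched were CCGGAA and CAGGAA on either strand, in the 250 bases before the RefSeq start of the gene (GRCm38.p6). Promoters were at hand for 52 of the 73 genes and for 16915 of all genes tested. CAGGAA was in 22 of the 52 (42.3%) and in 23.9% of all promoters, CCGGAA in 6 (11.5%) against 15.1%, and either site in 26, against 35.8%. Of the 7 falling genes, 6 had a promoter, and 2 held CAGGAA. The shares are a description, and a match of letters does not show binding. The promoters of Gimap6 (chr6:48708245-48708494, minus strand), Notch4 (chr17:34564045-34564294, plus strand) and Egfl7 (chr2:26580833-26581082, plus strand) are shown because their slopes were among those with the smallest p, with CAGGAA or its complement TTCCTG in capitals.
Gimap6: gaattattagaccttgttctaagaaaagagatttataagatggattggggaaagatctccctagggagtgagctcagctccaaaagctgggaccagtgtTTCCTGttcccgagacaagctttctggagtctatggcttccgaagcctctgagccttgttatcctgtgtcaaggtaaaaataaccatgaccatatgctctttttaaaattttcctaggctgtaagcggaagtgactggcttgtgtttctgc
Notch4: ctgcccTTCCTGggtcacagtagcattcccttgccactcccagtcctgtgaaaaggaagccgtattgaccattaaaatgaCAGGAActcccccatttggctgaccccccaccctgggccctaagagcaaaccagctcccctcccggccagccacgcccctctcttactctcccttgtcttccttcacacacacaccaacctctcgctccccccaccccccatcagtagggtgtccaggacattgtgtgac
Egfl7: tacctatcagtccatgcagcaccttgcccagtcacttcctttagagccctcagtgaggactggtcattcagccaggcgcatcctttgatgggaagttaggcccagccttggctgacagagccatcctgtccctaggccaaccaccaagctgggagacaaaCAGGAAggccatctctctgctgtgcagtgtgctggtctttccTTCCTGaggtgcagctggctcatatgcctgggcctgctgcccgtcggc
The window of Gimap6 held 1 such site and those of Notch4 and Egfl7 held 2 each, while that of Hecw2, whose slope also passed, held none.

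In the Notch pathway, through which neighbouring vessel cells settle arterial and sprouting fates, 3 of 15 genes rose at the adjusted threshold, beside 0.329% of all genes. At an unadjusted p under 0.05, 8 rose and 1 fell, beside 7.34% and 6.65%, and the median slope was 0.64. Notch4, the receptor found mainly on endothelium, ran from 8.91 in array 8 to 10.27 in array 5 (median 9.76), and its slope was 1.27 ± 0.13 (adjusted p = 0.0135). The ligand Jag1 was at 9.15 and 9.23 in arrays 1 and 8 and between 10.28 and 11.14 in the other 6 arrays, with a slope of 1.85 ± 0.22 (adjusted p = 0.0169). Notch3, the receptor of pericytes and smooth muscle, rose by 1.51 ± 0.23 (adjusted p = 0.0417). The ligand Dll4 and the target Hes1 had slopes of 0.90 and 0.87 that did not pass (adjusted p = 0.129 and 0.112). Hey2, a Notch target of arteries, had a slope of -0.70 ± 0.22 (adjusted p = 0.237). Acvrl1, the endothelial receptor for Bmp9, was the single gene of 22 in the BMP and TGF-beta list to pass, beside 0.329% of all genes. Its slope was 0.93 ± 0.12 (adjusted p = 0.0178). The list as a whole leaned neither way, with 11 positive and 11 negative slopes and a median of 0.02. At an unadjusted p under 0.05, 3 of its genes rose and 4 fell, beside 7.34% and 6.65%.

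Of 16 pericyte genes measured, 3 rose with the score at the adjusted threshold (beside 0.329% of all genes) and 10 at an unadjusted p under 0.05 (beside 7.34%), 15 had a positive slope, and the median slope was 1.05. Pdgfrb was at 10.46 and 10.502 in arrays 1 and 8 and between 11.37 and 12.28 in the other 6, with a slope of 1.48 ± 0.24 (adjusted p = 0.0468). Its ligand Pdgfb, made by endothelium, rose by 1.47 ± 0.19 (adjusted p = 0.0178) and ran from 8.55 in array 8 to 10.28 in array 4. Mcam, an adhesion molecule of pericytes that endothelium also carries, rose by 1.08 ± 0.17 (adjusted p = 0.0478). Rgs5, a regulator of G protein signalling that marks brain pericytes, had a slope of 0.83 ± 0.25 (adjusted p = 0.215) and was at 11.90 or above in every Wnt array. Vtn, a secreted adhesion protein of brain pericytes, was singled out after its values were seen. It was at 7.50 in array 1 and 8.13 in array 8 and at 10.10 or more in the other 6 arrays, and its slope of 3.48 ± 0.64 did not pass (adjusted p = 0.0736).

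Over the 8 Shh arrays the median slope of the same 16 pericyte genes was -0.40, and none rose at an unadjusted p under 0.05. Pdgfrb lay between 11.69 and 12.05 there, with a slope of -0.24 ± 0.39. The difference of its slopes, Wnt minus Shh, was 1.72 ± 0.57 (adjusted p = 0.196), and that of Notch3 was 0.82 ± 0.65 (adjusted p = 0.609). No gene of the list passed the test of the difference.

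The 17 basement membrane genes had a median slope of 0.51. Of these, 8 rose at an unadjusted p under 0.05 (beside 7.34% of all genes) and 2 at the adjusted threshold (beside 0.329%). These 2 were Col4a1 and Col4a2, neighbouring genes for the chains of type IV collagen, with slopes of 1.07 ± 0.17 (adjusted p = 0.0442) and 1.11 ± 0.14 (adjusted p = 0.0175). Col4a2 ran from 9.24 in array 8 to 10.45 in array 6. Sparc, a matrix glycoprotein in the list of interstitial matrix genes, was among the brightest genes at 11.82 to 12.47, and its slope of 0.49 ± 0.11 did not pass (adjusted p = 0.113). Of 13 fibroblast genes none passed the adjusted threshold and 1 rose at an unadjusted p under 0.05 (beside 7.34% of all genes). The list had a median slope of 0.27. Dcn, which encodes the proteoglycan decorin of fibroblasts, stayed between 13.07 and 13.54.

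**Figure D3:**
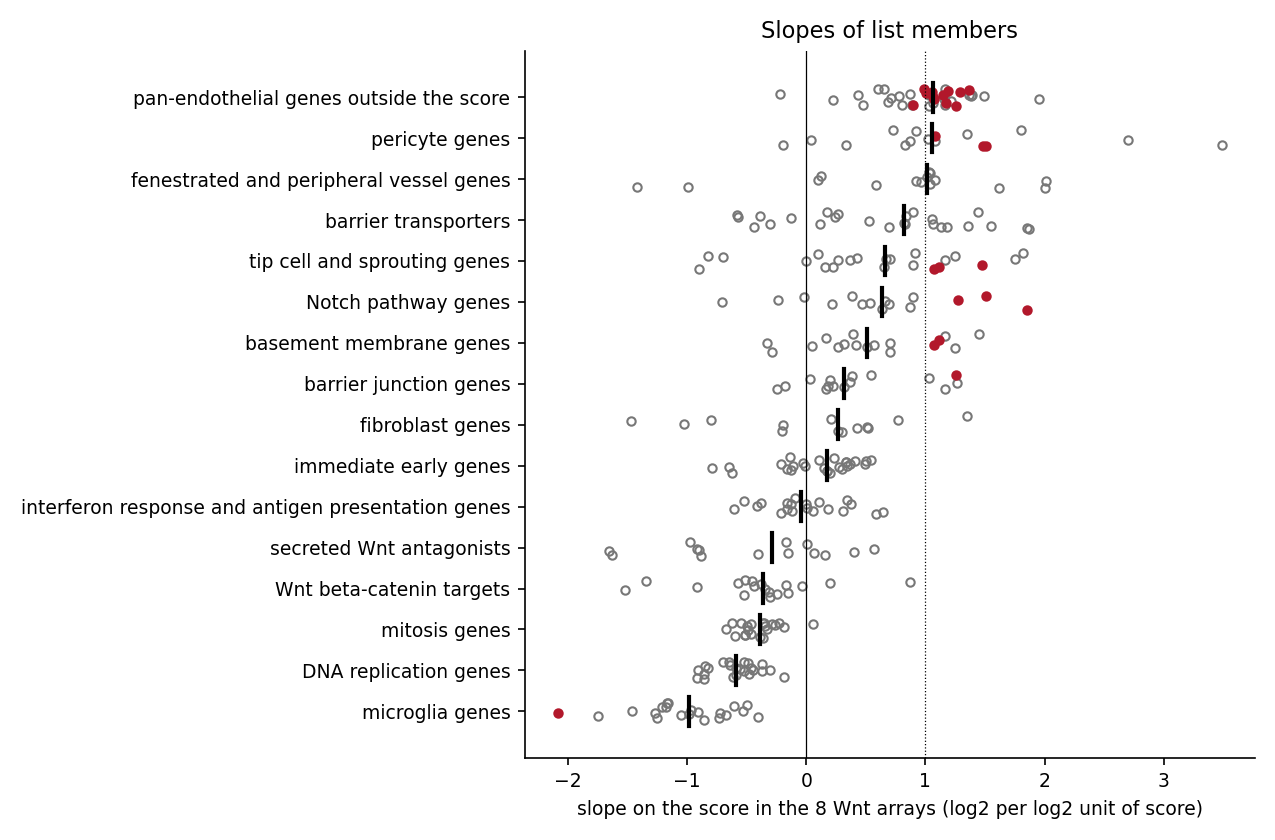
Slopes on the score (log2 units per log2 unit of score) of the members of 16 gene lists in the 8 Wnt arrays, 1 circle per gene. Filled circles had an adjusted p under 0.05, black bars are list medians, and the dotted line marks a slope of 1. Pan-endothelial genes had a median of 1.06, and all 21 microglia genes lay below 0.

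Genes of the barrier had mostly positive slopes, and few passed. None of 25 barrier transporters passed the adjusted threshold with limma, and 6 rose at an unadjusted p under 0.05 (beside 7.34% of all genes). Their median slope was 0.82, or 0.04 with the array median as a covariate. Abcg2 and Abcc4, pumps that return drugs and conjugates to the blood, had the smallest p of the list. Abcg2 ran from 7.62 in array 8 to 10.08 in array 4, with a slope of 1.86 ± 0.33 (adjusted p = 0.0658), and the slope of Abcc4 was 1.35 ± 0.32 (adjusted p = 0.134). The efflux pump Abcb1a had a slope of 1.13 ± 0.37 (adjusted p = 0.258), and that of the glucose transporter Slc2a1 was 0.83 ± 0.49 (adjusted p = 0.469). Esam was the single gene of 15 in the list of barrier junctions to pass (beside 0.329% of all genes). Of the 15, 5 rose at an unadjusted p under 0.05 (beside 7.34%), and the median slope was 0.31. Cldn5, the main claudin of the barrier, ran from 9.24 to 10.95 with a slope of 1.16 ± 0.39 (adjusted p = 0.265), and Lsr, a protein of the corners where cells meet, had a slope of 1.27 ± 0.36 (adjusted p = 0.187).

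Mfsd2a, the lipid transporter that marks barrier endothelium, did not pass the test. Its level was 11.005 in array 2, 10.56 in array 4, 9.74 in array 5, 9.42 in array 3, 8.94 in array 1, 8.56 in array 8, 8.47 in array 7 and 7.07 in array 6. Array 6 had the third highest score and the lowest Mfsd2a, and the slope was 0.84 ± 1.002 (adjusted p = 0.733). All 8 values lay below the lowest Shh array (12.08) and the lowest hindbrain array (11.93). Plvap, which forms the diaphragms of leaky vessels, was highest in array 6 (11.59) and lowest in array 8 and array 2 (9.58 and 9.59), with a slope of 1.01 ± 0.51 (adjusted p = 0.405). Among 15 genes of fenestrated and peripheral vessels none passed the adjusted threshold. At an unadjusted p under 0.05, 5 rose and 1 fell, beside 7.34% and 6.65% of all genes. The faller was Aqp1, a water channel that choroid plexus cells carry too, at 12.52 in array 1 and 10.28 in array 4 (slope -1.42 ± 0.34, adjusted p = 0.142). Ehd3, a membrane trafficking protein, was at 11.82 in array 6 and at 9.11 in array 1 (slope 1.61 ± 0.52, adjusted p = 0.248).

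The 7 genes that fell with the score did not come from a single list, and only Siglech was a member of any. Gpld1, an enzyme that releases GPI-anchored proteins, was at 12.85 in array 1, 12.61 in array 8, 12.06 in array 7, 11.02 in array 3, 10.96 in array 6, 10.83 in array 2, 10.13 in array 4 and 9.77 in array 5. Its slope was -2.60 ± 0.33 (adjusted p = 0.0178). Every Wnt array was above the highest Shh array (7.80) and the highest hindbrain array (8.24), and the slope in the Shh arrays was 0.36 ± 0.80. Creg2, a secreted glycoprotein of brain, fell from 9.69 in array 8 to 7.11 in array 5 (slope -2.18 ± 0.22, adjusted p = 0.0135). It lay between 5.55 and 6.57 in the Shh arrays, where the slope was -1.53 ± 0.61.

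Aldh5a1, a mitochondrial enzyme of GABA breakdown, fell with a slope of -1.90 ± 0.26 (adjusted p = 0.0256), from 9.36 in array 1 to 7.03 in array 4. Tnf, the inflammatory cytokine of microglia and macrophages, fell from 9.67 in array 8 to 6.62 in array 5 (slope -2.17 ± 0.28, adjusted p = 0.0190), and its slope in the Shh arrays was -3.75 ± 1.02. Siglech, a lectin of microglia, was at 8.23 in array 8, 8.16 in array 1 and between 5.85 and 6.96 in the other 6, with a slope of -2.08 ± 0.24 (adjusted p = 0.0169). Spry3, an inhibitor of receptor kinase signalling, and Ifitm10 fell by 1.31 and by 1.23 per unit of score (adjusted p = 0.0397 and 0.0349). Hmgcll1, an enzyme of ketone body synthesis, was next by p and did not pass (slope -1.41 ± 0.23, adjusted p = 0.0524).

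All 21 microglia genes had a negative slope, with a median of -0.98. Siglech alone passed the adjusted threshold (beside 0.0316% of all genes falling), and 9 fell at an unadjusted p under 0.05 (beside 6.65%). P2ry12, the purinergic receptor that marks resting microglia, was at 8.38 and 8.25 in arrays 1 and 8, 8.36 in array 2 and 6.29 in array 5 (slope -1.46 ± 0.44, adjusted p = 0.219). P2ry13, a close relative, had a slope of -1.74 ± 0.34 (adjusted p = 0.0868), and Tmem119, another marker of microglia, had -1.16 ± 0.34 (adjusted p = 0.201). The mean of the microglia genes was 8.95 in array 1, 8.94 in array 2, 8.89 in array 8 and 7.32 in array 5. In the Shh arrays it ran from 7.53 to 9.81 and in hindbrain from 9.91 to 10.90, so every Wnt array lay below every hindbrain array; the part of microglia RNA in the slopes was not tested. The median slope of the list was -3.17 in the Shh arrays. There 6 of the 21 fell at an unadjusted p under 0.05, beside 8.1% of all genes.

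Of the macrophage genes 8 had positive and 10 negative slopes, with a median of -0.26 that turned sign under some alternatives (-0.36 to 0.26). Ms4a7, of tissue macrophages, had a slope of -2.13 ± 0.74 (adjusted p = 0.270), and that of Ly6c2, of monocytes and of some endothelium, was 1.86 ± 0.39 (adjusted p = 0.107). The list median of 12 lymphocyte genes was 0.10 (-0.04 to 0.14). Of 26 immediate early genes, 13 heat shock chaperones, 32 oxidative phosphorylation genes and 33 cytosolic ribosomal protein genes, none passed the adjusted threshold, and their median slopes were 0.17, 0.07, -0.10 and -0.14. All of these medians changed sign under some alternative, over -0.39 to 0.32, -0.28 to 0.21, -0.17 to 0.02 and -0.26 to 0.08.

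Of 18 beta-catenin targets none passed the adjusted threshold. At an unadjusted p under 0.05, 4 fell and 1, Sox17, rose, beside 6.65% and 7.34% of all genes. The median slope was -0.36, and 16 had a negative slope, beside 11458 of all 22175 genes. Without arrays 8 and 1, 12 had a negative slope, beside 10484 of all genes. Lgr6, a receptor for R-spondins among these targets, ran from 8.69 in arrays 4 and 6 to 10.89 in array 3. Notum, an enzyme that inactivates Wnt proteins, had a slope of -0.92 ± 0.23 (adjusted p = 0.148). It also belongs to a separate list of 14 secreted Wnt antagonists, of which none passed. At an unadjusted p under 0.05, 3 of the 14 fell and 0 rose, beside 6.65% and 7.34%. Dkk3, of the antagonist list alone, ran from 10.52 in array 4 to 11.78 in array 1 (slope -0.98 ± 0.22, adjusted p = 0.115). Axin2, a direct target in most tissues, lay between 10.16 and 10.90, above all Shh arrays (8.07 to 9.06) and all hindbrain arrays (9.22 to 9.37). Its slope was -0.31 ± 0.19 in the Wnt arrays and 2.17 ± 0.43 in the Shh arrays, and the difference passed (-2.48 ± 0.50, adjusted p = 0.0448). Endothelium of the brain also uses beta-catenin signalling, so a level of Axin2 does not name its cell of origin.

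The slope was higher in Wnt than in Shh arrays for 73 genes (0.329% of genes tested) and lower for 24 (0.108%). Leaving out 1 array gave 21 to 94 and 4 to 23 such genes, and there were 45 or fewer higher and 14 or fewer lower ones without Wnt array 1, 5, 7 or 8 and without Shh array 2, 3, 5, 6, 7 or 8. Among genes without clone, model or similar names, the smallest p belonged to Olig2, Atoh1 and Gli2. Atoh1, the factor that specifies cerebellar granule neurons, fell by 6.23 per unit of score in the Shh arrays (7.24 to 10.22) and was near the limit set by the controls in the Wnt arrays (5.35 to 5.82), where its slope was 0.21 ± 0.15. The difference was 6.44 ± 0.76 (adjusted p = 0.00415). Olig2, a factor of oligodendrocyte and tumour precursors, ran from 6.93 to 9.78 in the Shh arrays and from 5.65 to 6.06 in the Wnt arrays. Its slopes were -7.41 ± 0.90 and 0.03 ± 0.15, and their difference was 7.45 ± 0.78 (adjusted p = 0.00194). Gli2, an effector of Shh signalling, had slopes of -4.64 ± 0.62 and -0.35 ± 0.13 and a difference of 4.29 ± 0.55 (adjusted p = 0.00737). Most of the difference for these genes came from the Shh slopes.

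Over the list of 17 granule neuron precursor genes, the median slope was 0.18 in the Wnt arrays and -2.83 in the Shh arrays. In the Wnt arrays 11 of the 17 had a mean above the control limit. The mean of the list ran from 6.15 to 6.77 there and from 7.17 to 8.89 in the Shh arrays. Low signal therefore limits the Wnt slopes of part of the list. Of the 17 genes, 4 passed the test of the difference with a higher slope in Wnt arrays, beside 0.329% of all genes. Zic1 and Zic2, factors of granule neuron precursors that meninges also carry, had positive slopes in the Wnt arrays. Zic2 was at 6.81 in array 1 and 10.29 in array 4 (slope 2.29 ± 0.51, adjusted p = 0.119), and Zic1 at 7.40 and 10.67 (slope 2.08 ± 0.57, adjusted p = 0.179). For 21 mitosis genes the medians were -0.39 in Wnt and -2.76 in Shh arrays, and for 23 DNA replication genes -0.59 and -2.28. No gene of either list passed the adjusted threshold with limma in the Wnt arrays. At an unadjusted p under 0.05, 0 mitosis and 5 DNA replication genes fell there, against 18 and 20 in the Shh arrays. The shares of all genes that fell were 6.65% in the Wnt and 8.1% in the Shh arrays. No gene of either list passed the test of the difference. With the array median as a covariate the median slope of the mitosis genes in the Wnt arrays was 0.44.

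**Figure D4:**
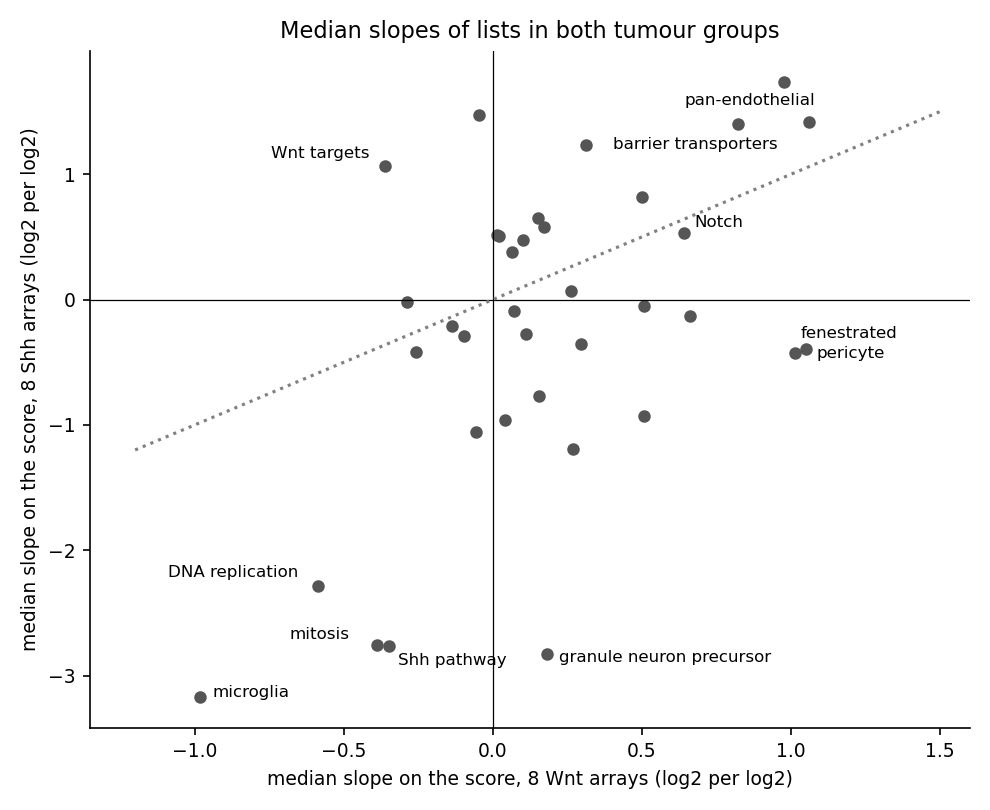
Median slope on the score of each gene list with at least 5 measured genes, in the 8 Wnt arrays (x axis) and the 8 Shh arrays (y axis). The dotted line marks equal slopes. The pericyte list stood at 1.05 and -0.40, and the granule neuron precursor list at 0.18 and -2.83.

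Genes also varied among the Wnt arrays with little relation to the score. Of 16369 genes with a Wnt mean above the control limit, 268 had an SD of 1 or more over the 8 Wnt arrays. For the same genes the count was 110 over the Shh and 43 over the hindbrain arrays. This filter used the Wnt arrays alone and left out genes bright only in another group, so these counts are not like for like. Among the 268, 80 had an unadjusted p under 0.05 with the score (29.9%, beside 15.5% of all genes above the limit), and 87 had an absolute r under 0.3 (32.5%, beside 36.1%). Such genes were picked by their values and get no test. Xist, the RNA of the inactive X chromosome, was between 12.30 and 12.61 in arrays 2, 3, 4, 6 and 8 and between 5.08 and 5.78 in arrays 1, 5 and 7. The Y-linked genes Uty, Kdm5d and Eif2s3y showed the opposite pattern, with Uty between 8.82 and 8.97 in arrays 1, 5 and 7 and between 3.81 and 4.34 in the others. The arrays with the lowest scores, 8 and 1, were thus on opposite sides, as were those with the highest, 4 and 5.

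Other genes of this kind were each high in a few arrays. Tbx5, a factor of heart and forelimb, was between 10.34 and 11.08 in arrays 2, 5 and 8 and between 5.53 and 8.78 in the others. Dbx1, a factor of hindbrain progenitors, was at 9.998 and 9.77 in arrays 6 and 7 and at 6.04 or less in the others. Amhr2, the receptor for anti-Müllerian hormone, was at 11.33 and 11.14 in arrays 2 and 4 and at 8.60 or less in the others, and Pnliprp1, a pancreatic lipase relative, was at 9.95 to 11.52 in arrays 3, 6 and 7 and at 7.31 or less in the others. Their levels in the Shh arrays stayed at 5.01 or less for Tbx5, 5.34 for Dbx1, 6.01 for Amhr2 and 5.80 for Pnliprp1. Htr3a, a serotonin-gated channel, ran from 6.55 in array 4 to 11.56 in array 6. Slco1c1, the thyroxine transporter of barrier endothelium, was at 11.69 in array 3 and 6.89 in array 6, and at 11.60 or above in every Shh array. Dkk1, a secreted Wnt antagonist, was at 9.74 and 9.31 in arrays 2 and 3 and at 6.07 in array 6. The inducible chaperone Hspa1b ran from 7.90 in array 7 to 11.63 in array 5.

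Residuals of the gene lists, meaning the list mean minus its fit on the score, showed which arrays departed together. Barrier transporters were 0.94 below their fit in array 6, where genes of fenestrated vessels were 0.63 above theirs, and the pan-endothelial genes were within 0.09 of their fit in that array. In array 2, interferon and antigen presentation genes stood 0.82, microglia genes 0.75 and mitosis genes 0.71 above the fit. In array 4, immediate early genes, which many tissues switch on within minutes of handling, stood 0.86 above, and mitosis genes had a residual of -0.90. Fibroblast genes stood 0.79 below their fit in array 3. Microglia and myeloid genes were lowest against their fit in array 5 (-0.59 and -0.56). Over the residuals of all genes, the leading 4 components held 27.2%, 19.7%, 17.4% and 14.6% of the variance. The first set array 3 against arrays 6 and 2, the second array 2 against 6 and 7, and the third was led by array 4. The fourth was highest in arrays 1 and 5 (28.97 and 21.15). Uty, Kdm5d and Eif2s3y led its positive side and Xist its negative side. Array 7, high for Uty and low for Xist like arrays 1 and 5, had the lowest value (-14.83), so this component did not follow those genes in every array.

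**Figure D5:**
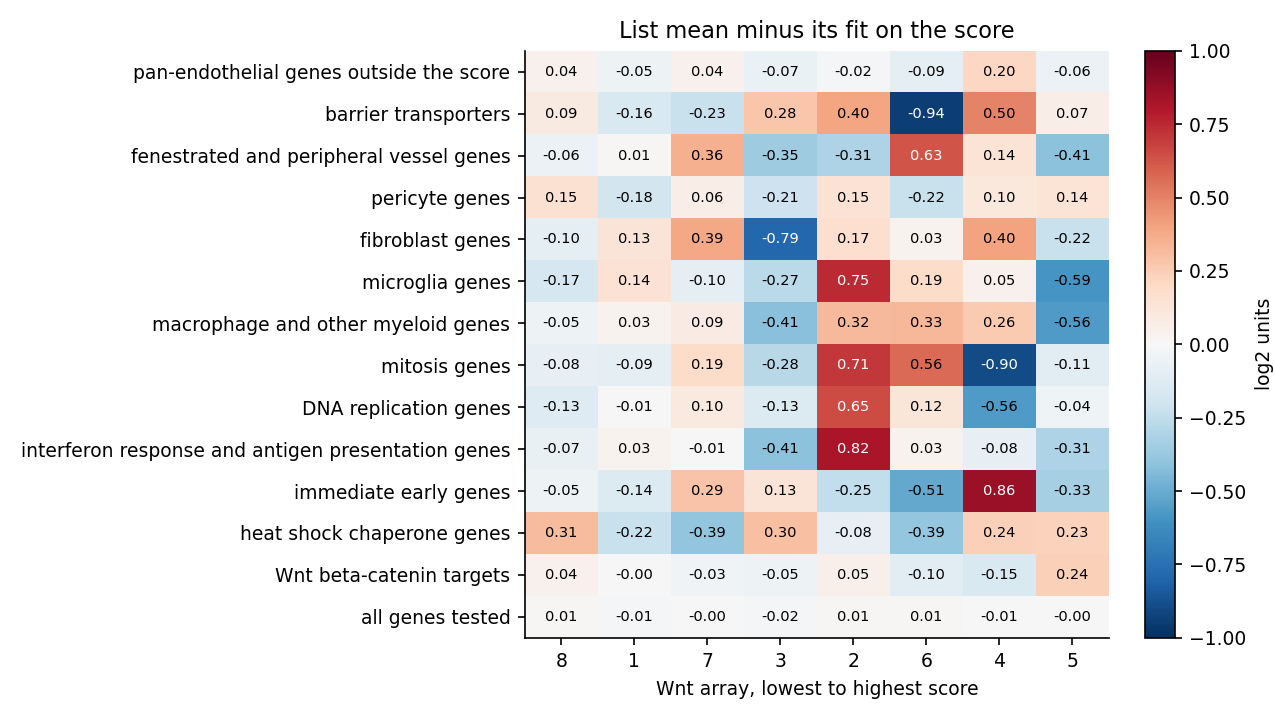
List mean minus its fit on the score (log2 units) for 14 sets of genes in the 8 Wnt arrays, ordered from the lowest to the highest score. Array 6 was lowest for barrier transporters (-0.94), array 2 highest for interferon genes (0.82) and array 4 lowest for mitosis genes (-0.90).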

How the data were processed

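RNA of sorted endothelial cells was measured on Affymetrix mouse arrays (24 arrays, 8 per group). The deposited log2 values were used as the authors gave them; the submitters' processing notes name Partek 6.6 without its role. Normalization and genome build: not given in the sources used here. Genes were probe sets with a single symbol in the platform annotation (23521 of 41345), the brightest over 24 arrays for each of 22180 genes, 1082 of which had several. Probe sets with several (1814) or no symbols (16010) were left out. Slopes on the score came from limma 3.58.1 in R 4.3.3 (lmFit, eBayes without trend, two-sided, Benjamini-Hochberg over 22175 genes, called under 0.05). The same fit was also run on simulated data, with independent noise of the spread each gene had in the main fit. Slope differences used the 16 tumour arrays, each group with its own level and slope. Single array measures were tested by exact two-sided permutation. Values after ± are standard errors from limma. The arrays' number limits the precision, and p-values measure the spread between these samples.

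The members, the score and the lists were chosen with earlier results of these data known. Named genes were the 14 steepest rising and falling genes that kept their sign without any 1 array (filled by smallest p), the smallest p of each list, the 16 most variable genes with an absolute r under 0.3, the 10 smallest p of the slope difference and a fixed set (score genes, Plvap, Mfsd2a, Cldn5, Slc2a1, Abcb1a, Wif1, Dkk1, Axin2, Lef1). Genes with clone, model, microRNA, olfactory receptor and similar names were passed over in the steepest, the most variable and the slope difference picks. Not all of the picked genes are named in the text. Vtn, Nos3, Robo4, Ets1, Ctnnb1, Mcam, Rgs5, Dcn, P2ry12, Tmem119, Hes1 and the hormone genes of the closing section were chosen after their values were seen. Mki67 was not picked by these rules either. Alternatives were quantile normalization, a shift to equal medians, the mean of probe sets, no dim genes, a variance trend, other scores, the array median as a covariate, and leaving out arrays. The labels do not say whether arrays of the same number share a batch, and the main fits used no pairing. Deviations of Wnt and Shh arrays of the same number correlated between -0.0965 and 0.325, which does not settle it. Of the genes, 99.2% had a gene ID in the RefSeq gene table.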

Additional observations from a re-analysis of the deposited data

Results flagged for a closer look

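A single array stood apart from the other 7 for 9 of 127 measures looked at. Of these, 5 were hormone genes picked by their values, so the count is not to be set against chance, which gives about 1 in 20. Without those genes it was 4 of 122. These measures overlap, come from the same 8 arrays and include other genes chosen by their values, so that share is not to be set against chance either. Array 4 held the highest levels of 5 genes of the anterior pituitary and of hormone-secreting cells: Gh was at 10.03 there and at 5.52 or less in the other arrays, Prl at 10.35 against 4.84 or less, Pomc at 8.01 against 5.80 or less, Cga at 7.93 against 5.07 or less and Chga at 9.19 against 6.77 or less. Array 4 was also lowest for Mki67, a proliferation antigen (8.76, next 9.69), and for the mean of oxidative phosphorylation genes (9.11, next 9.29). Array 2 was highest for the mean of interferon and antigen presentation genes (8.17, next 7.39). Array 8, with the lowest score, had the highest mean of the ERCC controls (4.08, next 3.95).

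Slopes on the score differed between tumour groups for 73 genes that were higher and 24 that were lower in Wnt arrays, by limma's test of the difference. Named among them were Olig2 (7.45), Atoh1 (6.44) and Gli2 (4.29, all Wnt minus Shh).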

How the results depend on the processing

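The 27 named genes that passed kept their direction in the 241 alternative fits run for them other than those without 1 array, and in 169 of these they also passed; keeping the sign without any 1 array was part of how the steepest were chosen. Of 37 gene lists, 18 had a median slope that changed sign under some alternative (the score from other endothelial genes was not used for this count). Rising and falling genes numbered 27 and 5 after a shift of the arrays to the same median, 131 and 25 with other endothelial genes as the score, and 0 and 0 both with the array median as a covariate and without arrays 8 and 1. Without 1 array they ranged from 0 to 71 and from 0 to 22. The cause was not tested. Higher and lower slopes in Wnt than Shh arrays numbered 256 and 169 with all 24 arrays in the fit, 45 and 15 after quantile normalization, and 60 and 4 after the median shift. Without 1 array they ranged from 21 to 94 and from 4 to 23. With the replicate number as a block they numbered 0 and 0 (957 and 904 at an unadjusted p under 0.05), and the slope difference of Notch3 turned to -0.27. Of 8 Wnt arrays, 2 correlated best with the Shh array of their own number. Whether arrays of the same number share a batch is not stated, so the fit with the block cannot be set aside. Without 1 array, r of the score ran from 0.368 to 0.873 for the array median, from -0.842 to -0.396 for the ERCC mean and from 0.780 to 0.907 for the first component; without arrays 8 and 1 the last was 0.569. Signs turned for 4 named genes that had not passed: Mfsd2a (-0.56 with the median covariate), Axin2 (0.11) and Atoh1 (-0.17) without arrays 8 and 1, and Olig2 (-0.088 after quantile normalization, -0.058 after the median shift, -0.017 without array 6, and from -0.040 to 0.15 over the fits without 1 array). Genes with an SD of 1 or more and an absolute r under 0.3 numbered 58 to 119 over the alternatives. Low signal limits Atoh1, Olig2 and Spry3, which lie near the control limit.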
